A study of Emberiza melanocephala with 4 samples.

Results

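Short-day (SD) liver was set against short-day hypothalamus in the black-headed bunting (Emberiza melanocephala), a wild-caught migratory songbird, through every gene symbol that either short-day library listed. The files of the SD pair name 83 genes, of 278 named across all 4 libraries of the series. Of these 83, 13 were listed by both short-day libraries, 21 by the library labelled SD hypothalamus only and 49 by the library labelled SD liver only. A gene entered if at least 1 transcript carried its reference symbol, and its level was summed over those transcripts in FPKM, which here is mean coverage per base scaled to the aligned sequence of the library. Each group is 1 pyrosequencing library of total RNA from wild-caught birds, and the long-day (LD) hypothalamus and LD liver libraries serve as the setting. The sources used here do not state how many birds a library holds, or their age and sex. Groups follow the titles, although the recorded seasonal state reads long day for SD liver and short day for LD hypothalamus. The command lines in the headers of both hypothalamus files name the tissue as brain. The library labelled SD hypothalamus named 4 genes of the liver marker lists described below and 0 of the brain lists. That labelled LD liver named 2 and 8. What RNA either library holds was not tested, so tissue names denote libraries by label throughout. With 1 library per side there is no test and no error estimate, and every difference below compares these libraries and not the tissues.

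The hypothalamus holds neurons, glia and ependymal cells, and in birds it reads day length and drives seasonal reproduction and feeding through peptide hormones. The liver consists mainly of hepatocytes, which secrete plasma proteins such as apolipoproteins, interconvert sugars and amino acids, and supply fuel for migration. Transcription factors present in hepatocytes include ONECUT1 and CEBPB, while neurons are marked by proteins of synaptic vesicles and of axons. In libraries of whole tissue, fewer cells of a type and less RNA per cell cannot be told apart.

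The named genes are a thin layer of the sequence. The SD hypothalamus library holds 15.8 aligned megabases and the SD liver library 20.8, of which the listed symbols account for 43.8 and 69.3 kilobases, or 0.277% and 0.333%. The highest locus listed in both, which has no reference gene, stood at 253430 FPKM in SD hypothalamus and 286579 FPKM in SD liver. Levels are scaled to a total that includes such loci, and how much of each library they take was not analysed here. The median named gene rests on 618 aligned bases in SD hypothalamus and 414 in SD liver among the 13 shared genes. It rests on 343 bases among the 21 genes of SD hypothalamus only and on 387 among the 49 of SD liver only. All 62 transcripts of the SD pair that match a reference gene with more than 1 exon had coverage in every exon, and the same held for all 282 such transcripts of the 4 files. A gene that is not listed is therefore not a gene at 0, and no ratio was formed against an unlisted gene. Of the 83 genes, 36 have a single exon. Without read counts, no interval can be put on a level.

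Lists of marker genes were read first, for whether both short-day libraries resemble liver. Of 144 genes on 3 liver lists (secreted and transport proteins, metabolic enzymes, transcription factors), SD hypothalamus named 4, which were APOA1, PAICS, NFIL3 and ONECUT1. SD liver named 6, among them AHCY, ADH5, CEBPB, NFIL3 and ONECUT1, and held 8 once assembled transcripts of APOA1 and PAICS were joined. LD liver named 2, APOA1 and NFIL3, and LD hypothalamus named 0. For scale, of the 659 genes on all 18 lists, SD hypothalamus named 24, SD liver 26, LD hypothalamus 44 and LD liver 58. Of 115 genes on 3 brain lists (neurons, hypothalamic peptides with photoperiodic genes, glia with ependyma), both short-day libraries named 0. LD hypothalamus named 9 and LD liver 8, both with SNAP25 of synaptic vesicle fusion and GAP43 of growing axons. Summed by symbol, the liver lists held 499, 213, 0 and 24.8 FPKM in SD hypothalamus, SD liver, LD hypothalamus and LD liver, and the brain lists 0, 0, 1222 and 1119 FPKM. With assembled transcripts joined, the liver lists came to 1011 FPKM in SD liver and stayed at 499 in SD hypothalamus, so the order of the short-day libraries turned. APOA1 alone held 655 of the 1011 FPKM and 327 of the 499 FPKM. Its transcripts differ in length, at 892 bases in SD liver and 1579 in SD hypothalamus, so these sums are not comparable. In aligned bases per megabase, joined, they held 857 for SD hypothalamus and 1188 for SD liver. The short-day libraries also named 0 genes of the lists for blood cells, endothelium and stroma, or muscle.

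Several limits belong beside that reading. The lists were chosen with earlier results of these data known, so their counts are a description and no test of likeness to liver. Albumin, the fibrinogen chains, transferrin and HNF4A, which define hepatocytes, were not among the symbols analysed here, in SD liver or in another library. Names come from the annotation of another species, the collared flycatcher, and which bunting genes this leaves unnamed was not analysed. Several of the liver genes are made in other tissues as well: PAICS, AHCY, ADH5 and NFIL3 are broadly expressed, and APOA1 is made in several bird tissues. ONECUT1 also serves pancreas development, and whether ONECUT1 or CEBPB is particular to liver was not tested. Whether the brain-list genes named in the LD libraries are particular to brain was not tested either. The brain lists were read from libraries in which 34 and 62 genes have a name, against 126 and 183 in the LD pair, so a list has fewer chances in the short-day pair. Whether the library labelled SD hypothalamus, or that labelled LD liver, holds liver RNA, brain RNA or a mixture was not tested.

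**Figure D1:**
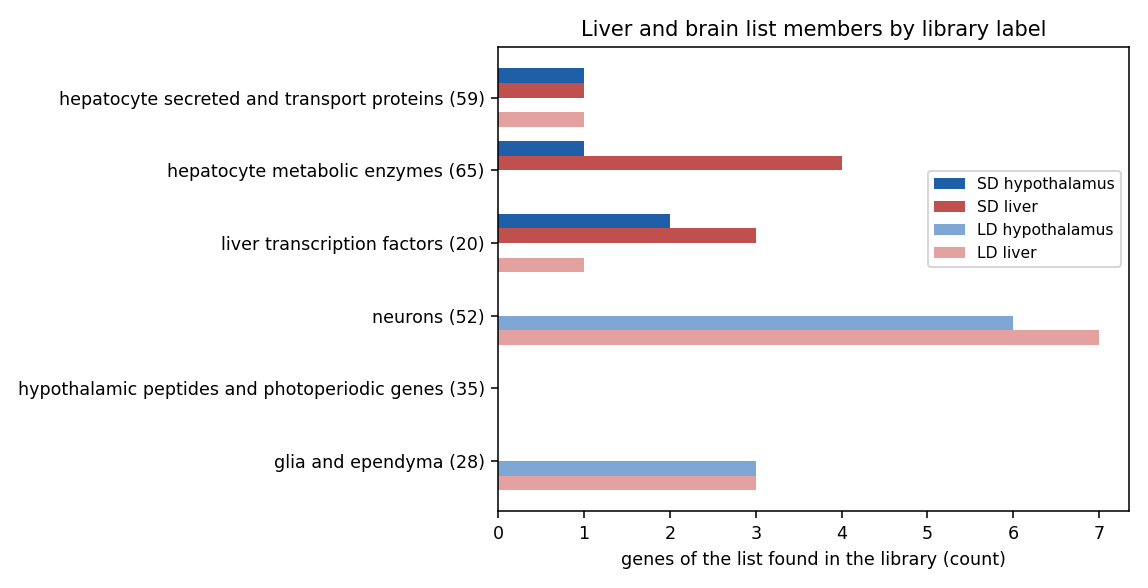
Number of genes from 6 marker lists found in each library, joined assembled transcripts included, with the size of each list in brackets and 1 bar per library label. Liver list members stand mostly in the short-day libraries and neuron and glia members in the long-day libraries alone, while the hypothalamic peptide list has no member in any library.

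Among the 13 shared genes, the energy enzymes and carriers differed in direction. SLC25A6, an ADP/ATP carrier of the inner mitochondrial membrane (scaffold JH603176.1, 8845531 to 8850443, minus strand, of the collared flycatcher build FicAlb_1.4), had 32.5 FPKM in SD hypothalamus and 74.6 FPKM in SD liver. That is a 2.30-fold difference and a log2 ratio of 1.17 after adding a pseudocount of 1, and SLC25A6 was the 1 shared gene of 13 at least 2-fold higher in SD liver, where 7.46% of all 67 loci listed in both libraries were. Coverage scaled to depth was higher in SD liver in all 3 of its exons. The sequence is close to that of other ADP/ATP carriers, so reads may be shared among them. MDH1, the cytosolic malate dehydrogenase that passes reducing equivalents between cytosol and mitochondria (JH603223.1, 3838051 to 3849263), had 40.1 and 74.9 FPKM, a log2 ratio of 0.89. The direction was the same in each of its 9 exons, with depth-scaled coverage between 1.5-fold and 5.32-fold higher in SD liver. The upper end comes from the first exon, which was covered at mean depths of 0.0043 and 0.030 per base in SD hypothalamus and SD liver. TPI1, triosephosphate isomerase of glycolysis (JH603259.1, 895195 to 898667), went the other way, with 24.1 FPKM in SD hypothalamus and 13.6 FPKM in SD liver (log2 ratio -0.78), and 5 of its 6 exons were lower in SD liver.

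Transcription factors and chromatin proteins were the largest group of shared genes, with 5 of 13. They were also the largest group of all 83 genes, with 15. NFIL3, NRIP1 and ZBED4 had the lowest ratios, while ONECUT1 was nearly level and ZHX1 was higher in SD liver. NFIL3, a transcriptional repressor tied to the circadian clock and also present in liver (JH603239.1, 835525 to 836898, 1 exon), had 82.7 FPKM in SD hypothalamus against 13.1 FPKM in SD liver. This 6.33-fold difference (log2 ratio -2.57) rests on 1796 and 373 aligned bases. NRIP1, a co-repressor that nuclear receptors recruit in metabolic tissues (JH603215.1, 4710628 to 4714116), had 7.62 and 1.09 FPKM (log2 ratio -2.04). ZBED4, a zinc-finger protein (JH603192.1, 2312221 to 2315739), had 8.15 and 1.34 FPKM (-1.97). NRIP1 and ZBED4 stand on 79 and 98 aligned bases in SD liver, so the size of their ratios is not secure. ZHX1, a zinc-finger and homeobox repressor (JH603185.1, 5778121 to 5780745), was at 3.42 and 6.89 FPKM (0.84), from 142 and 376 bases.

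ONECUT1, a factor of the ONECUT family that directs hepatocyte and pancreas development (JH603201.1, 4920281 to 4939950, minus strand), was at nearly the same level in both libraries, 10.9 FPKM in SD hypothalamus and 11.1 FPKM in SD liver (log2 ratio 0.02). It was listed in neither LD library. The near-equal sums hide an exon difference. The exon that lies first along the scaffold, which is the 3′ one on this strand, had a depth-scaled coverage 3.01-fold higher in SD hypothalamus, and the other exon was 1.58-fold higher in SD liver. Its 618 and 827 aligned bases are few, and whether this split is more than sampling was not tested.

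EIF4A2, an RNA helicase of the translation initiation complex (JH603178.1, 11100757 to 11109425, plus strand), was the highest shared gene in both libraries. It had 270.7 FPKM in SD hypothalamus and 143.8 FPKM in SD liver (log2 ratio -0.91), from 11491 and 8028 aligned bases. Most of the difference lies in exons 6 to 11, the 3′ part of the gene. Over exons 2 to 5 the libraries held 305 and 263 aligned bases per aligned megabase, a 1.16-fold difference. Over exons 7 to 10 they held 229 and 25.9, an 8.83-fold difference, while exon 11 differed 2.43-fold. Exons 2 to 5 thus held 10.1 times as many bases as exons 7 to 10 in SD liver, against 1.33 times in SD hypothalamus, 0.826 times in LD hypothalamus and 0.771 times in LD liver. This ratio was highest in the library labelled SD liver. The exon groups were chosen after their values were seen, and reads shared with the close relative EIF4A1 were not analysed here.

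**Figure D2:**
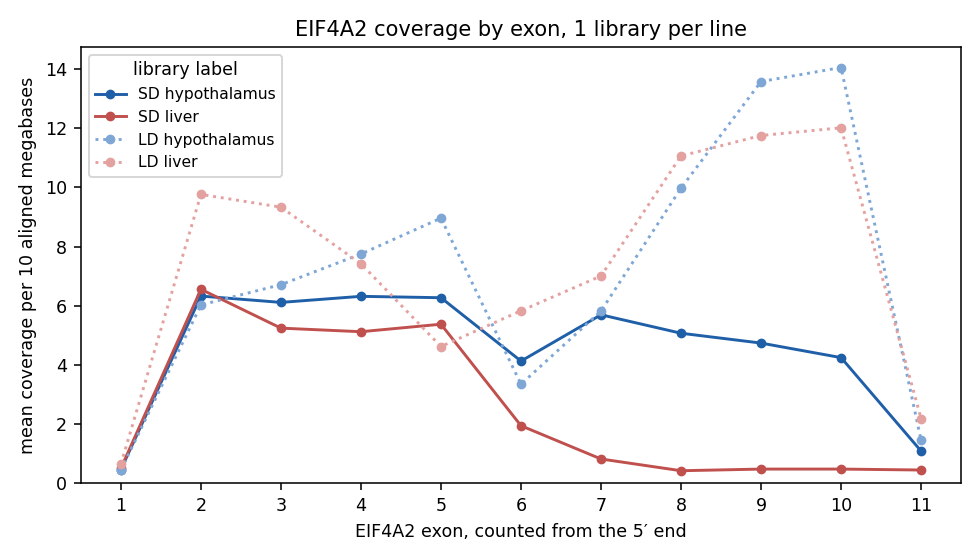
Mean coverage of each EIF4A2 exon per 10 aligned megabases (vertical axis) against exon number from the 5′ end (horizontal axis), with 1 line per library, solid for the short-day pair and dotted for the long-day pair. The short-day lines run together over exons 2 to 5 and part from exon 6 on, with SD liver at 1.95 in exon 6 and 0.425 to 0.822 in exons 7 to 10, where SD hypothalamus holds 4.25 to 5.70.

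The remaining shared genes serve membrane traffic, volume regulation, protein turnover and adhesion. ARF6, a GTPase of endosomal traffic at the cell surface, had 74.1 FPKM in SD hypothalamus and 41.6 FPKM in SD liver (log2 ratio -0.82). LRRC8D, part of the anion channels that open when cells swell, had 10.99 and 7.76 FPKM (-0.45), close to the 12.1 and 8.28 FPKM of the LD pair. RNF139, a ubiquitin ligase of the endoplasmic reticulum that bears on sterol sensing, was lower in SD liver at 8.11 and 2.81 FPKM (-1.26), the latter from 102 aligned bases. MESDC1, a talin-related adhesion protein, had 28.6 and 13.8 FPKM. Its log2 ratio of -0.995 is the nearest to the 2-fold limit from inside, as SLC25A6 at 1.17 is the nearest from outside.

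By count, 9 of the 13 shared genes were lower and 4 higher in SD liver, and the median log2 ratio was -0.82, against 0.0027 over all 67 loci that both short-day libraries list with or without a name. NFIL3, NRIP1, ZBED4 and RNF139, 4 of 13, were at least 2-fold lower, where 13.4% of the loci were. These shares of loci are of FPKM, and some loci rest on transcripts of different length. The 67 loci are also unlike the 13 genes. Of the loci, 33 have no reference gene, and assembled transcripts were listed only from a coverage of 2.5 up. Within 2-fold stood 29 of these 33, while 12 of the 13 genes lay below that coverage in each library. The median and shares of the loci are therefore no like background, and the same holds for the share set beside SLC25A6 above. Centred on the median of the 13, the split became 3 higher and 3 lower. When both libraries had to hold at least 150 aligned bases of a gene, NFIL3 was the only gene left at least 2-fold lower and SLC25A6 the only one higher. All 13 shared genes rest on the same reference transcripts in both files, so the libraries do not differ in transcript length. Length still enters through the pseudocount, which is added to FPKM. In aligned bases per megabase the log2 ratio was -2.52 for NRIP1 and -2.38 for ZBED4.

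**Figure D3:**
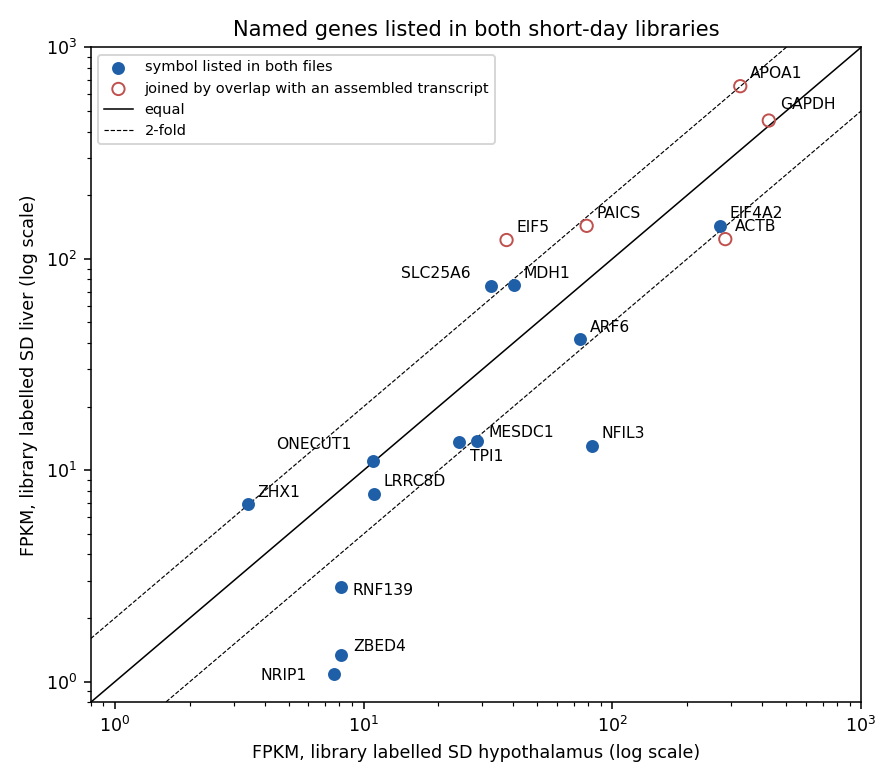
FPKM of each named gene in the library labelled SD liver (vertical log axis) against that labelled SD hypothalamus (horizontal log axis), with filled points for the 13 genes listed by symbol in both files and open circles for 5 genes joined through an assembled transcript. The solid line marks equal FPKM and the dashed lines a 2-fold difference. NFIL3, RNF139, ZBED4 and NRIP1 lie clearly below the lower dashed line and MESDC1 just below it (2.07-fold before the pseudocount). The open circle of ACTB is also below that line. SLC25A6 (2.30-fold) and the open circle of EIF5 lie above the upper dashed line, and ZHX1 and APOA1 almost on it. ONECUT1 lies on the line of equality.

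The order of the shared genes was similar in the short-day libraries. Spearman's rank correlation of FPKM across the 13 genes was 0.86, and 0.77 for aligned bases per megabase, which are not divided by length. These correlations are across genes that share the same 2 libraries and the same transcripts, and genes are not independent replicates. EIF4A2 ranked first in both. The lowest level was that of ZHX1 in SD hypothalamus and that of NRIP1 in SD liver. For comparison, the 74 genes shared by the LD pair had a rank correlation of 0.76, the 23 shared by the liver labels 0.52, and the 10 shared by the hypothalamus labels 0.21. Across both labels, SD liver and LD hypothalamus gave 0.77 over 14 genes, and SD hypothalamus and LD liver 0.28 over 22. On aligned bases per megabase these values became 0.85, 0.57, 0.76, 0.79 and 0.43, so the order of the pairs depends on the scale.

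By symbol, the overlap did not single out the short-day pair. The 13 shared genes make up 38.2% of the 34 genes named in SD hypothalamus and 21.0% of the 62 named in SD liver. SD hypothalamus shared 22 genes with LD liver, which is 64.7% of its own list and 12.02% of the 183 genes there. It shared 10 genes with LD hypothalamus, 29.4% of its own list and 7.94% of the 126 there. SD liver shared 23 genes with LD liver, 37.1% of its own list and 12.6% of the other. The LD pair shared 58.7% and 40.4% of its lists. No test was made of these shares, and they move with list length.

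A symbol can be missing because the library holds the gene only as an assembled transcript without a name. Joining such transcripts to the gene whose exons they overlap, an alternative added after seeing the data, brought 5 more genes into both short-day libraries. The highest was APOA1, the chief apolipoprotein of HDL particles, made by liver and in birds by other tissues too (JH603405.1, 184244 to 186123, minus strand). Its reference transcript of 1579 bases in SD hypothalamus stood at 326.9 FPKM, and an unnamed transcript of 892 bases in SD liver (184786 to 185752) at 655 FPKM. Because the lengths differ, FPKM is not comparable here, and aligned bases per megabase were 516 and 585. GAPDH, a glycolytic enzyme, was unnamed in both short-day files and took its name from the LD files, with assembled transcripts of 1153 and 1170 bases and 10 exons each. The libraries were near each other at 425.6 FPKM in SD hypothalamus and 450.8 FPKM in SD liver, or 491 and 527 aligned bases per megabase.

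The other joined genes changed direction or size with the scale. PAICS, an enzyme of purine synthesis, had 78.8 FPKM in SD hypothalamus on a transcript of 2381 bases and 143 FPKM in SD liver on 500 bases, but 188 and 71.6 aligned bases per megabase. EIF5, a factor of start-codon recognition, likewise had 37.6 and 123 FPKM but 128 and 65.5 aligned bases per megabase. A longer transcript gathers more bases, so neither scale is free of the length. ACTB, the cytoskeletal beta-actin, had 284.5 FPKM at its locus in SD hypothalamus and 124 FPKM in SD liver. That locus joins another annotated gene, and actins resemble each other, so the value is uncertain. With these 5 genes, 18 were shared. In FPKM, 5 were then at least 2-fold lower and 3 higher in SD liver, but APOA1, EIF5 and ACTB are among these and were measured on transcripts of different length. In aligned bases per megabase, 5 were lower, PAICS among them, and SLC25A6 was the 1 that was higher. The rank correlation was 0.90 on both scales.

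Of the 21 genes listed by symbol only in SD hypothalamus, 18 had no transcript at their locus in SD liver, and 9 had none in an LD library. These 21 were chosen for having no symbol in SD liver, so the 18 largely follow from that choice. Over all loci in SD hypothalamus, 63.2% were also in SD liver and 39 were not. Of the 67 loci in both, which are a different set, 30 were in no LD library. The share of all SD hypothalamus loci that no LD library lists was not analysed here, so the 9 of 21 has no like background. After APOA1 the highest of the 21 genes was SAR1B, at 101 FPKM from 952 aligned bases. SAR1B is the GTPase that buds vesicles carrying large lipoproteins out of the endoplasmic reticulum. GPR146, a receptor known in mice for raising hepatic lipoprotein secretion, had 19.7 FPKM and GJB1, a gap junction connexin of hepatocytes and of myelinating glia, 14.8 FPKM. SC5D, an enzyme of cholesterol synthesis, had 8.88 FPKM. These 3 and SAR1B, picked here after their values were seen, are among the 9. The 9 also hold PAICS, EXOC8, TMEM11 and TMSB4X, which have other roles. TMEM11, a protein of mitochondrial inner membrane shape, had 32.9 FPKM. TMSB4X, an actin-binding peptide, stood at 21.1 FPKM on only 44 bases.

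Another set in SD hypothalamus, picked after its values were seen, was low there and high under both LD labels. Symbols took up 0.277% of aligned sequence in SD hypothalamus, 1.42% in LD hypothalamus and 1.88% in LD liver. Over the 10 symbols shared with LD hypothalamus, the median log2 ratio of LD over SD was 0.96, with 5 at least 2-fold higher and 0 lower. Over the 22 shared with LD liver the median was 0.71, with 7 higher and 3 lower. Whether the set differs beyond this was not tested. CALM3, a calmodulin gene for calcium sensing, had 9.88 FPKM, against 160 FPKM under the LD hypothalamus label and 136 under that of LD liver, on the same reference transcript. YWHAQ, an adaptor that binds phosphorylated proteins, had 6.32 FPKM against 77.1 and 89.8 FPKM. The actin-severing protein DSTN (6.08, 44.2 and 22.1 FPKM) and the dynein light chain DYNLL2 (6.12, 43.9 and 12.6 FPKM) were likewise lower than in both LD libraries. SD liver did not list these genes, so their level there is not known. EIF4G2, a translation factor, had 36.2 FPKM in SD hypothalamus and 31.4 FPKM in LD liver on the same reference transcript. At its locus, assembled transcripts included, LD hypothalamus and LD liver had 270.0 and 268.8 FPKM. ZFP36L1, which binds and destabilises messenger RNA, was level at 24.2, 22.1 and 27.3 FPKM. Calmodulins and phosphoprotein adaptors form families of similar genes, so reads may be shared within them. A further 5 of the 21, the Wnt receptor FZD1, the deubiquitinase VCPIP1, the chromosome alignment protein CHAMP1, the exocyst subunit EXOC8 and the dolichol kinase DOLK, had 2.34 to 8.15 FPKM.

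Of the 49 genes listed by symbol only in SD liver, ACTB alone also had a transcript at its locus in SD hypothalamus, and 30 had none in an LD library. Among all 175 loci in SD liver, 108 were not in SD hypothalamus. Of the 67 loci in both, which are a different set, 30 were in no LD library. The share of all 175 loci that no LD library lists was not analysed here. The 30 of 49 therefore has no like background and is not read as a trait of these genes. The median of the 49 genes was 15.7 FPKM, and ACTB was the highest of them at 87.0 FPKM. Metabolic enzymes and carriers made up 8 of the 49, against 3 of the 21 in SD hypothalamus only and 14 of all 83 genes. The 8 ran from COX1, a mitochondrially encoded subunit at 1.02 FPKM on 33 bases, to OAZ1, which restrains polyamine synthesis, at 79.9 FPKM. AHCY, which clears S-adenosylhomocysteine in the methyl cycle, had 65.1 FPKM from 4482 aligned bases, and ADH5, an alcohol dehydrogenase that oxidises formaldehyde bound to glutathione, 37.3 FPKM. PCBD1, which recycles the cofactor of phenylalanine hydroxylase, had 30.7 FPKM, and CYB5A, the cytochrome that feeds electrons to fatty acid desaturases and P450 enzymes, 23.6 FPKM. PGRMC1, a haem-binding membrane partner of P450 enzymes, had 16.3 FPKM. These 5, picked after their values were seen, were listed in SD liver and in none of the other 3 libraries.

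The other genes of SD liver only fell into several groups, and 4 were assigned no function. CEBPB, a transcription factor of the liver acute-phase response, had 10.8 FPKM on 184 aligned bases. The other 7 nuclear regulators stood between 2.36 and 24.5 FPKM, led by ZBTB43 and TOB1, an antiproliferative regulator. OAZ1 was lower than its 187 and 253 FPKM in the LD libraries. The ribosomal stalk protein RPLP0 (36.4 FPKM), the zinc-knuckle protein CNBP (62.2 FPKM), the splicing factor SRSF6 (30.7 FPKM) and LSM3 of the spliceosome (18.0 FPKM) formed the RNA group. Protein turnover was held by 7 genes at 9.76 to 23.8 FPKM, among them UFM1, a ubiquitin-like modifier, and the ubiquitin-conjugating enzyme UBE2G1. Genes of traffic included RAB43, SNX12, SRP14 of the signal recognition particle and TMED5, at 8.72 to 31.3 FPKM. Another 12 stood between 4.36 and 33.2 FPKM, among them TMEM229B at 33.2 FPKM, the mitochondrial scaffold protein PHB at 25.3 FPKM and the secreted growth factor BMP4 at 6.15 FPKM.

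Some genes known from nerve or excitable cells were listed in SD liver. AMIGO2, a leucine-rich-repeat adhesion protein of neurons, had 1.48 FPKM from 57 aligned bases, RGS9BP, which anchors a G-protein regulator in photoreceptors, 14.5 FPKM from 215 bases, and KCNJ11, the pore of ATP-sensitive potassium channels, 6.63 FPKM from 164 bases, against 20.6 FPKM in LD hypothalamus. PFN2, an actin-binding profilin of brain, had 5.32 FPKM from 67.3 bases, against 37.0 FPKM under the LD hypothalamus label and 5.4 under that of LD liver. These genes were picked after their values were seen.

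**Figure D4:**
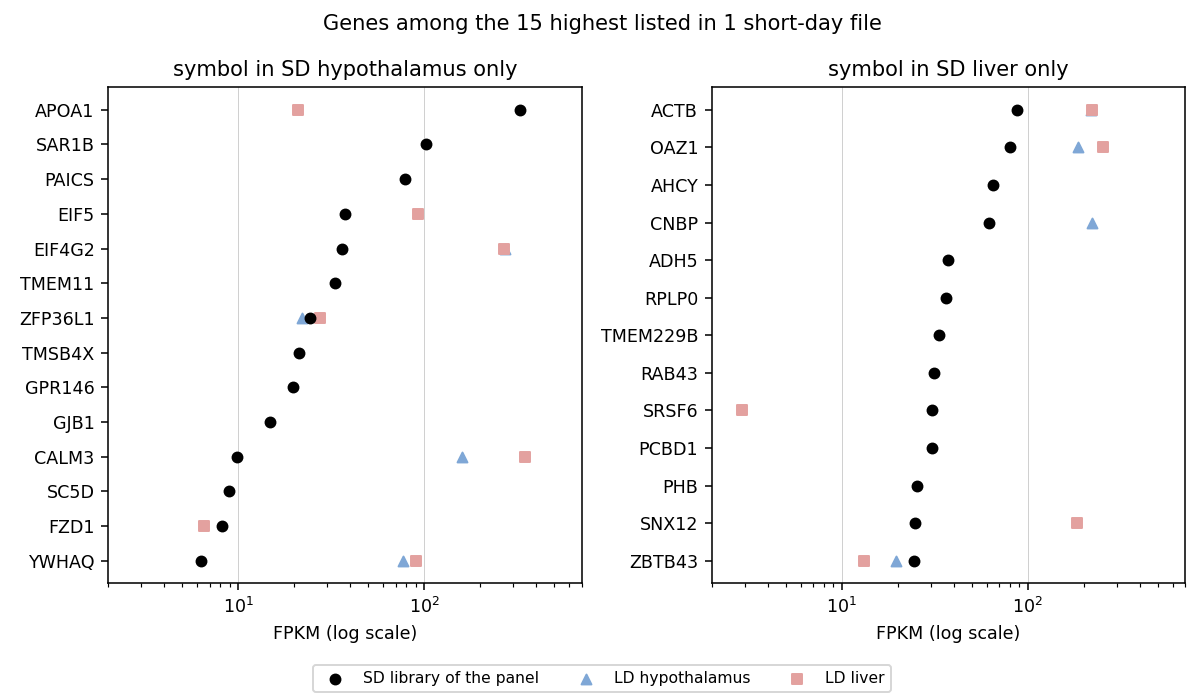
FPKM on a log axis of genes among the 15 highest listed by symbol in SD hypothalamus only (left) and in SD liver only (right), as black points, with blue triangles for LD hypothalamus and pink squares for LD liver where the locus was listed, assembled transcripts included. AHCY, ADH5 and PCBD1 carry no LD symbol on the right, and CALM3 and YWHAQ lie far to the left of their LD values on the left.

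The other marker and pathway lists gave little more in the short-day pair. Of 39 genes of sugar and energy metabolism, SD hypothalamus named 3 (SLC25A6, MDH1 and TPI1) and SD liver 4, the same 3 among them. Of 40 genes of translation, SD hypothalamus named EIF4A2, EIF5 and EIF4G2, and SD liver EIF4A2 and RPLP0. NFIL3 was the 1 gene of 23 on the clock list in each. Of 55 genes of vesicle traffic, ARF6 was shared, with SAR1B in SD hypothalamus and SNX12 in SD liver. Of 48 nuclear repressors and zinc-finger genes, SD hypothalamus named 3 and SD liver 7, and of 43 signalling genes 5 and 1. Of 32 cytoskeletal genes they named 3 and 2, of 40 ubiquitin and proteasome genes RNF139 each, and of 44 RNA-binding genes 0 and 2.

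The short-day libraries also shared loci without a name. Of the 67 loci in both, 18 had a symbol after joining, 16 had a reference identifier only and 33 had no reference gene. Loci shared by the pair make up 63.2% of all loci in SD hypothalamus and 38.3% of those in SD liver. The locus overlap of the other pairs was not analysed here, so whether these shares are particular to this pair was not tested. The rank correlation of FPKM was 0.91 across the 67 loci and 0.86 across the 57 left when the 10 highest were set aside. For the 33 loci with no reference gene it was 0.78, and 0.67 for the 29 of them outside the 10 highest. Assembled transcripts were listed from a coverage of 2.5 up, which is 158 FPKM in SD hypothalamus and 120 FPKM in SD liver, and this floor narrows how far such loci can lie apart. Within 2-fold stood 53 of the 67. The 23 loci that were also in both LD libraries gave 0.99. They include the 10 highest, which widen their range, so this value is not comparable with the others.

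The loci shared by the short-day pair and listed in no LD library numbered 30. No matching count was made for the LD pair. ONECUT1, PAICS and MESDC1 had a symbol, 4 had an identifier only and 23 had no reference gene. Those 23 were at 162 to 1426 FPKM in SD hypothalamus (median 264) and 121 to 1067 FPKM in SD liver (median 338), and 19 were within 2-fold, with a rank correlation of 0.54. The highest lay on scaffold JH603177.1 (9722749 to 9725938, minus strand), with 1426 and 1067 FPKM. Next came a locus on JH603312.1 (924291 to 925593), at 1043 and 1066 FPKM, and 1 on JH603331.1 (109672 to 123085), at 806 and 515 FPKM. Which genes they are was not analysed here. The widest gap of the 67 was at ENSFALG00000011757 (JH603331.1, 169040 to 174986), with 229 FPKM on an assembled transcript in SD hypothalamus and 2.43 FPKM on a longer reference transcript in SD liver.

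**Figure D5:**
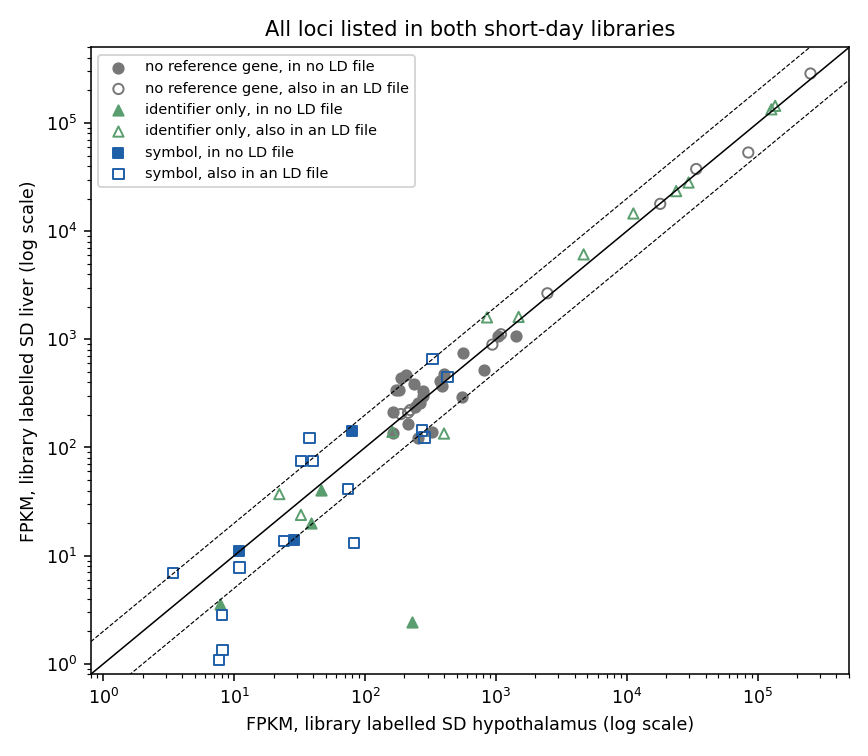
FPKM of the 67 loci listed in both short-day libraries, SD liver (vertical log axis) against SD hypothalamus (horizontal log axis), with squares for loci with a symbol, triangles for identifiers only and circles for no reference gene. Filled marks are in no LD file, the solid line is equality and the dashed lines are 2-fold. The filled circles, 121 to 1426 FPKM, lie mostly near the line of equality.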

How the data were processed

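The deposited files hold 1 transcript assembly per library, made with StringTie 1.3.3b on trimmed alignments with the collared flycatcher annotation (Ensembl 89, FicAlb_1.4) as guide but not limited to it, per the file headers. For the aligner and the trimming tool: not given in the sources used here. Mean coverage, FPKM and TPM of each transcript were deposited inside a text field. FPKM was summed per reference gene symbol, and coverage times summed exon length gave aligned bases. The ratio of FPKM to coverage is constant within a file, and aligned megabases were derived from it. The log2 ratio is that of FPKM plus 1, SD liver over SD hypothalamus, for symbols in both files. A fold of 2 was used as the limit, with no test. Loci were built over the 4 files from transcripts that share a reference gene or whose same-strand exons overlap (1 base suffices), and unstranded transcripts joined the locus they overlapped most. Strand is not stated to be kept, so overlapping genes on opposite strands cannot be told apart. The reader, sums and joins were checked on simulated data. Exon numbers follow the files and rise with the coordinate. Functional groups were assigned by hand. The genes, the 18 lists (659 genes) and the comparison were chosen with earlier results of these data known. Named are all shared symbols, the 15 highest of each library alone and listed members of the lists, and some others picked after their values were seen. A few genes that this rule takes are not reported here. Alternatives were another scale, coverage and base minimums, pseudocounts, centring, identifiers and joined transcripts. No genome was used, so no sequence is shown. Computations used Python 3.11.15 and pandas 2.3.3.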

Additional observations from a re-analysis of the deposited data

Results flagged for a closer look

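The direction of the liver label over the hypothalamus label differed between the labelled seasons for EIF4A2 and SLC25A6. These are 2 of the 4 named genes listed by symbol in all 4 libraries. EIF4A2 had a log2 ratio of -0.91 in the SD pair and 0.12 in the LD pair. SLC25A6 had 1.17 in the SD pair and -0.10 in the LD pair. Each value comes from 1 library per side and the differences were not tested. The ratios of the LD pair are close to 0. LRRC8D and NRIP1, the other 2, were lower under the liver label in both pairs. The recorded seasonal state goes against the titles of SD liver and LD hypothalamus. SD hypothalamus named 4 genes of the liver lists and 0 of the brain lists, and LD liver named 2 and 8. What RNA either library holds was not tested. Neither pair is therefore read here as a contrast of tissues within a season.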

How the results depend on the processing

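The limits include depth, list length, 1 library per side and gene names taken from another species, the collared flycatcher. The rank correlation of the 13 shared genes (0.86), its median log2 ratio (-0.82) and the lists of genes in one library only (21 and 49) were recomputed under the alternatives that apply to each. A minimum coverage of 1 left 1 shared gene, with 5 only in SD hypothalamus and 7 only in SD liver, none (0) higher and none (0) lower by 2-fold, and no rank correlation, since few named genes reach that coverage. Without a pseudocount, 2 genes were at least 2-fold higher and 5 lower, and with a pseudocount of 10, 0 were higher and 1 lower. At least 150 aligned bases in each library gave a rank correlation of 0.68 and 1 gene lower. Centring the ratios on their median gave 3 higher and 3 lower. Counting by reference identifier gave 27 shared genes and a median log2 ratio of -0.18. Joining assembled transcripts, added after seeing the data, gave 3 higher in FPKM, where APOA1 and EIF5 rest on transcripts of different length, and 1 higher in aligned bases per megabase. Aligned bases per megabase left the counts at 1 higher and 4 lower. Restriction to the same reference transcripts could not change them, since all 13 genes already rest on the same ones. Of 88 ratios of single genes under these alternatives, 83 moved by less than 0.6 on the log2 scale and 0 reversed. The 5 that moved by more were of NRIP1, ZBED4 and RNF139, under the pseudocounts. Many of the 88 could not move. The minimums, the same reference transcripts and joining in FPKM leave the ratio of a kept gene as it was. Joined ratios in aligned bases per megabase repeat the unjoined ones. The count is therefore no measure of stability. No paired analysis was possible because each group has 1 library.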
